A study of Mus musculus with 18 samples.

Results

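Interferon-stimulated genes are the genes that cells switch on when they sense an interferon, and 39 of them were followed here in the forepaws of arthritic and control mice. The genes were taken by symbol from a list of interferon-induced antiviral genes and transcription factors. All 39 were among the 18585 genes of the deposited table, and 38 of them were among the 13809 genes with enough reads to be tested. Gbp5 was too low for a test, at 0 to 8.04 normalized counts (reads divided by a library size factor) in the 18 libraries.

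Cells that detect foreign DNA, or foreign RNA through sensors such as Ifih1 and Ddx58, secrete interferons. These bind receptors on the same and on neighbouring cells, and the kinases Jak1 and Tyk2 then activate transcription factors, among them Stat2, which joins Irf9 and binds a DNA element called the interferon-stimulated response element. Interferon gamma, a product of T and NK cells, acts instead through the gamma-activated site. The induced proteins block viral replication, degrade RNA, raise the level of the sensors themselves and attract lymphocytes, and a raised level of these genes in blood or synovium is known as an interferon signature in rheumatic disease.

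The mice were of the C57BL/6 strain, either wild type (WT) or Sema3b-/-, which lack Sema3b, a secreted class 3 semaphorin. RNA came from whole forepaws and was read by CEL-seq, a method that counts a tag near the 3′ end of each transcript. Each genotype gave 4 control and 5 arthritis libraries, 18 in all. The labels name neither the arthritis model, its duration, the age of the mice nor which part of Sema3b was removed, and they do not state that every library came from a separate animal, so a p-value here reflects only how much these libraries vary, which may be technical. In a whole paw, more cells of a type that expresses a gene and more RNA of that gene per cell cannot be told apart.

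The shallowest library, Sema3b-/- control replicate 1, held 1732783 reads and the deepest, WT arthritis replicate 2, 19464892, and 3 reads, the upper limit set by a count of 0 from counting error alone, make 12.1 normalized counts in the shallowest library. Sema3b itself was at 23.7 to 67.5 normalized counts in the WT libraries and at 0 to 7.20 in the Sema3b-/- libraries. By Xist and the Y-linked gene Ddx3y the WT controls were all female, and in WT arthritis only replicate 1 was, so that arthritis and sex nearly coincide in WT. Males in the mutant were control replicates 2 and 3 and arthritis replicate 5. The titles of WT arthritis replicate 5 and Sema3b-/- arthritis replicates 1 and 2 are worded differently from those of the other arthritis libraries. The control titles all carry a further wording that no arthritis title has, so it cannot be told apart from the lack of arthritis. The title wording term used below sets only those differently worded arthritis libraries against all other libraries, and cannot adjust for the control wording. Sema3b-/- arthritis replicate 5 is an arthritis library by its title, but the deposited table heads its column as a control. Counts are also given without it. Markers of skeletal muscle, epidermis, cartilage and bone were present in every library, as in a paw.

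The promoters of these genes were searched for the elements named above. RefSeq promoters (GRCm38.p6, 250 bases before to 50 after the annotated start) were matched by symbol for 31 of the 39 genes. Dhx58, Zbp1, Usp18, Oas2, Mx1, Mx2, Parp14 and Rtp4 were not matched. The core of the interferon-stimulated response element was searched as GAAANNGAAA on both strands. It was found in 18 of the 31 genes (58.1%), against 3.99% of all 27025 genes with a promoter. The core of the gamma-activated site, TTCNNNGAA, which reads the same on both strands, was found in 10 of 31 (32.3%) against 9.55% of all genes. The letters of neither motif contain the other, although single matches can overlap in a promoter, as they do in Bst2. A match is a description of the letters and was not tested as a binding site.

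Isg15 had 3 matches to the response element that overlap in 1 run, more than any other of these genes, and the 250 bases before its start are shown whole, in the direction of transcription and with the run in capitals (chr4:156200819-156201068, minus strand).
Isg15: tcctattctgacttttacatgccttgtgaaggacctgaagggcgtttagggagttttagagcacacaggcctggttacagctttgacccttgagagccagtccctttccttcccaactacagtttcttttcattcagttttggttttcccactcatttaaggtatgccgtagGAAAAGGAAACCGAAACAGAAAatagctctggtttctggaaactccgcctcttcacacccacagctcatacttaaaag
The next stretches are from 7 genes that were called higher in arthritic Sema3b-/- paws, again 5′ to 3′ along the gene with 1 match in capitals, so that the shared letters and their orientation can be compared.
Bst2: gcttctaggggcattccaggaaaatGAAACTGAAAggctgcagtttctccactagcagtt
Oas1a: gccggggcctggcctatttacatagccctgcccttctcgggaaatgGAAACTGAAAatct
Ifit3: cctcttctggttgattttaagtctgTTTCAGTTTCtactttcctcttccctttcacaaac
Cxcl10: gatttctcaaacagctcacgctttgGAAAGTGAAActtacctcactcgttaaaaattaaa
Gbp3: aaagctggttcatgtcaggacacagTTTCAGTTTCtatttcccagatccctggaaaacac
Gbp7: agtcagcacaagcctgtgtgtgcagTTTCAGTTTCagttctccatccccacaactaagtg
Eif2ak2: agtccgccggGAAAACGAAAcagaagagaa
The stretches are Bst2 chr8:71537562-71537621 on the minus strand, Oas1a chr5:120907526-120907585 on the minus strand, Ifit3 chr19:34583382-34583441 on the plus strand, Cxcl10 chr5:92349068-92349127 on the minus strand. The others are Gbp3 chr3:142559974-142560033 on the plus strand, Gbp7 chr3:142530258-142530317 on the plus strand and Eif2ak2 chr17:78882535-78882564 on the minus strand. In Bst2, Oas1a, Cxcl10 and Eif2ak2 the motif reads in the direction of transcription and in Ifit3, Gbp3 and Gbp7 as its reverse complement. The match of Eif2ak2 starts 18 bases after the transcription start, and only 30 bases around it are shown.

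**Figure D1:**
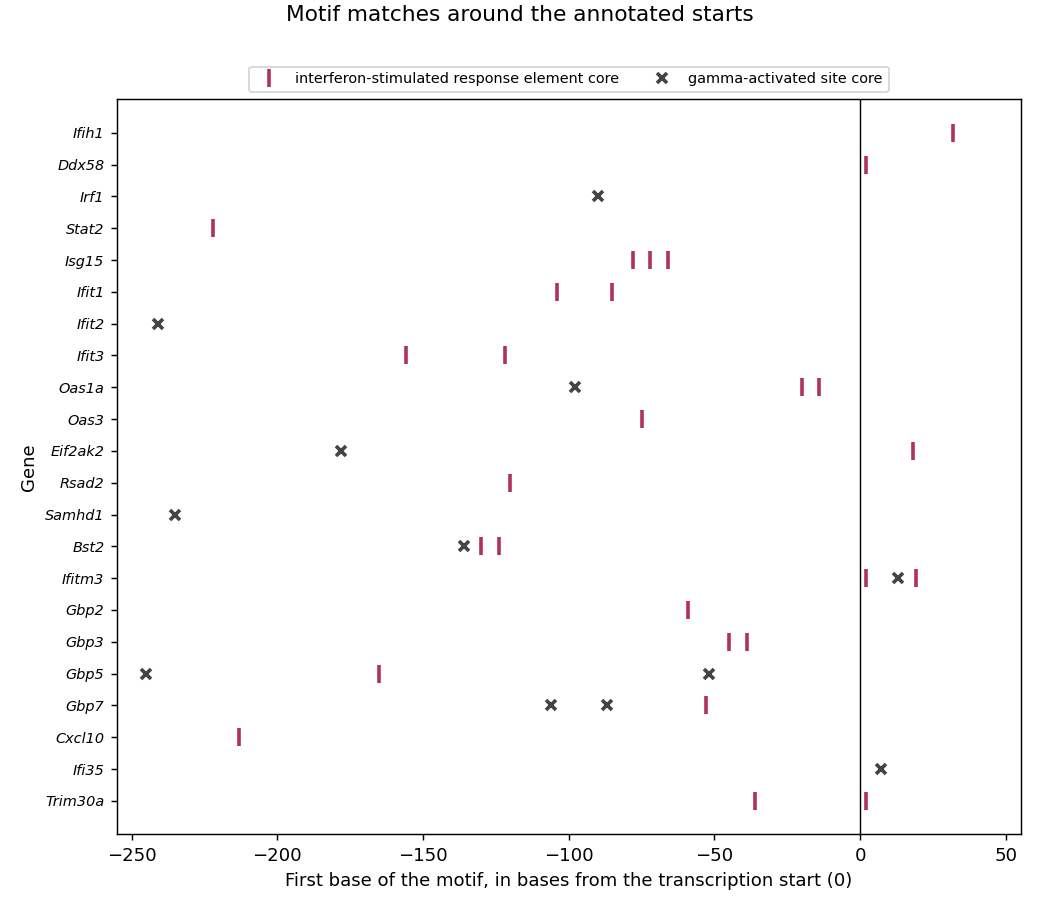
Positions of motif matches in the promoters of the 22 genes with at least 1 match. The x axis gives the first base of each match in bases from the annotated transcription start (0), bars mark the interferon-stimulated response element core and crosses the gamma-activated site core. Most bars lie within 165 bases before the start, with those of Ifih1, Ddx58, Eif2ak2 and Ifitm3, and 1 of 2 in Trim30a, after it.

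The first question was how many of these genes changed with arthritis in each genotype. In arthritic Sema3b-/- paws 21 of the 38 tested genes rose and none fell, by limma on log2(normalized count + 1) with a Benjamini-Hochberg adjusted p under 0.05 over all genes tested. Among all genes 6.84% rose and 5.55% fell in that comparison. In arthritic WT paws 3 of 38 rose, Isg15, Eif2ak2 and Bst2, and none fell, where 2.64% of all genes rose and 1.58% fell. With the effect averaged over both genotypes, 25 rose and none fell (12.6% and 10.9% of all genes). The 21 and the 25 share 19 genes, and 27 genes were called in at least 1 of the 3 comparisons. On the recovered reads edgeR called 20 higher in Sema3b-/- (6.35% of all genes), 4 in WT (3.77%) and 27 averaged over genotypes (13.5%). DESeq2 called 25 (7.86%), 7 (6.58%) and 28 (14.6%). The calls given below are those of limma, and genes that another tool called are named beside them.

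In Sema3b-/- mice the log2 fold change was positive for all 38 tested genes, with a median of 1.26 and a range from 0.27 (Ifi35) to 3.08 (Cxcl10), while the median over all tested genes was -0.01. In WT mice it was positive for 33 and negative for 5 (Irf1, Stat2, Cmpk2, Gbp2 and Cxcl9), with a median of 0.48 against -0.02 over all genes and a highest value of 2.04 (Isg15). The groups did not overlap, with every arthritis library above every control of its genotype, for 22 tested genes in Sema3b-/- (7.13% of all genes) and for 4 in WT (5.82%): Isg15, Eif2ak2, Mx1 and Bst2. The median SE was 0.38 in each genotype.

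The counts depend on single libraries. In WT the count was 0 without WT control replicate 1 or 2, 1 without WT control replicate 3 or WT arthritis replicate 3, 4 or 5, and 6 without WT arthritis replicate 2, and it was 0 with sex as a term, where the median log2 fold change was 0.08. In Sema3b-/- it was 12 without control replicate 3, arthritis replicate 2 or arthritis replicate 5, and 13 without control replicate 4. It was 11 there with the title wording as a term and 28 with sex as a term. Averaged over genotypes the count was 13 with the title wording as a term and 20 with sex as a term. Of the 21 calls in Sema3b-/-, 11 (Zbp1, Isg15, Oas1a, Oas2, Oasl2, Eif2ak2, Bst2, Ifitm3, Cxcl10, Parp14 and Trim30a) remained whichever single library was left out. Within 1 sex, arthritis was higher for 37 of 38 genes among Sema3b-/- females (4 against 2 libraries, median log2 difference 1.04) and for 38 of 38 among Sema3b-/- males (1 against 2, median 1.87, resting on arthritis replicate 5 alone). Among WT females it was higher for 20 of 38 (1 against 4, median 0.01), and there was no male WT control. The authors' deposited table, at an adjusted p under 0.05, called 14 of these genes higher in Sema3b-/- arthritis (3.87% of all genes with a value) and 3 in WT arthritis, Bst2, Isg15 and Zbp1 (3.51%). Of the 21 limma calls in Sema3b-/-, that table did not make those of Ifih1, Irf9, Oas1a, Oasl1, Mx2, Gbp3, Gbp7 and Xaf1. Their adjusted p there was 0.0516 (Gbp3) to 0.185 (Mx2). It did not make the WT call of Eif2ak2 either (adjusted p = 0.055).

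**Figure D2:**
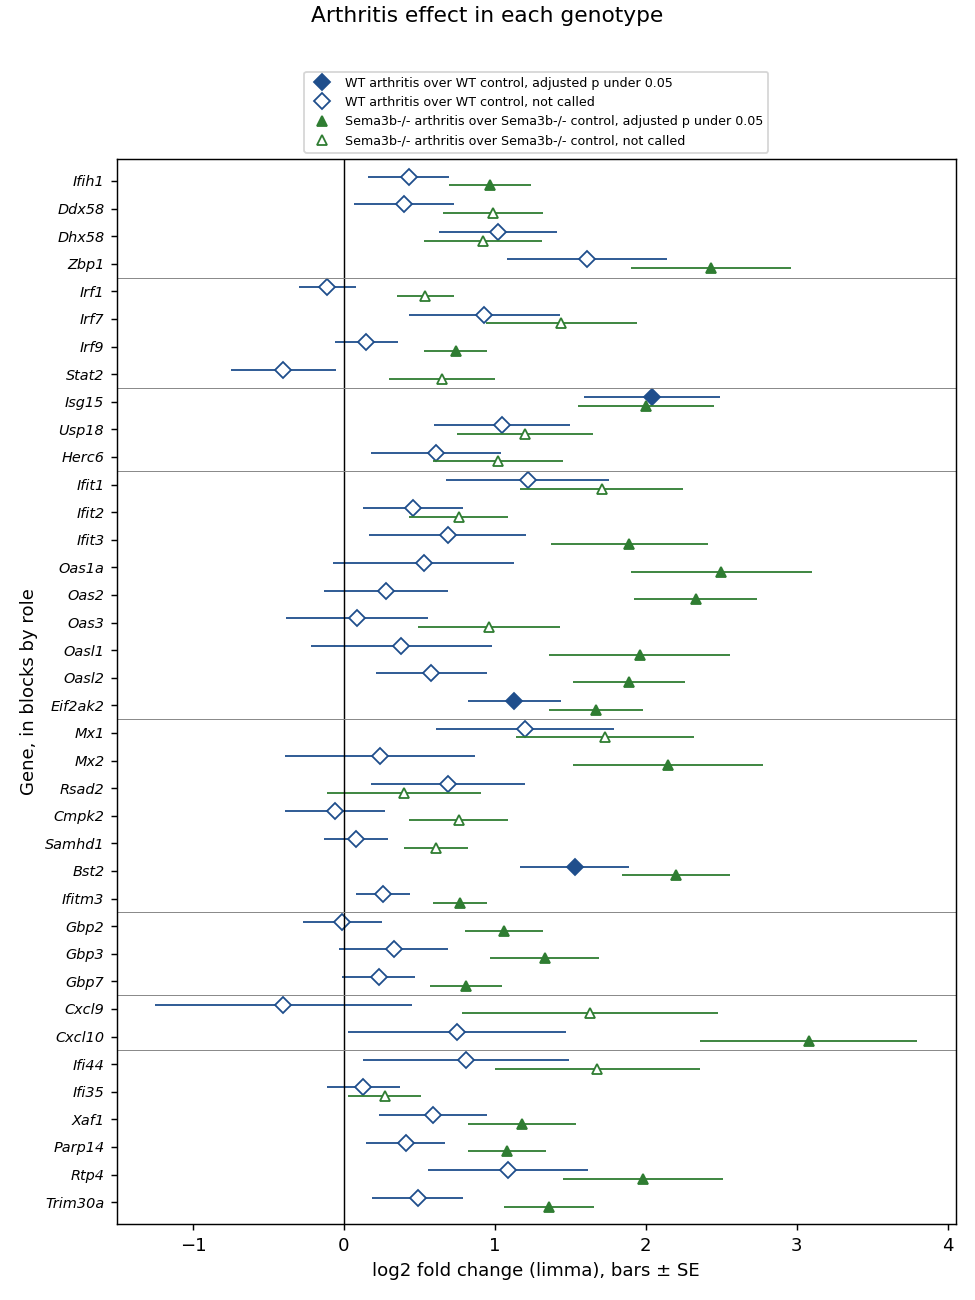
Log2 fold change of arthritis over control for the 38 tested genes in blocks by role (y axis), in WT (diamonds) and Sema3b-/- (triangles), with bars of ± 1 SE from the limma fit and filled symbols for an adjusted p under 0.05. Filled triangles mark 21 genes and filled diamonds 3, and the triangle lies to the right of the diamond for 35 of 38 genes.

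Of the RNA and DNA sensors, Ifih1 and Zbp1 rose in Sema3b-/- arthritis, and none of the 4 passed the limma test in WT. Zbp1, a sensor of left-handed nucleic acid that can trigger necroptosis (mm10 chr2:173206612-173218923, minus strand), was at 40.9, 67.7, 68.5 and 59.7 normalized counts in WT control replicates 1 to 4 and at 68.8, 66.5, 27.3 and 57.6 in Sema3b-/- control. In arthritis it was at 84.3, 58.9, 231, 478 and 335 in WT replicates 1 to 5 and at 215, 439, 177, 226 and 485 in Sema3b-/-. All 5 Sema3b-/- arthritis libraries lay above all controls, while WT arthritis replicates 1 and 2 were near the control range and replicates 3 to 5 well above it. The log2 fold change was 2.43 (SE 0.53, adjusted p = 0.00853) in Sema3b-/- and 1.61 (SE 0.53, adjusted p = 0.0929) in WT. Zbp1 was called in WT by edgeR and DESeq2 and in the authors' deposited table, though not by limma.

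Ifih1, which encodes the long double-stranded RNA sensor MDA5 (chr2:62595798-62646255, minus strand), was at 38.7, 48.7, 41.3 and 52.9 in WT control and 40.5, 25.1, 46.3 and 32.4 in Sema3b-/- control. It was at 69.5, 38.4, 51.7, 78.3 and 77.3 in WT arthritis and 60.9, 100.4, 51.3, 54 and 99.3 in Sema3b-/- arthritis. Sema3b-/- arthritis replicates 2 and 5 were the highest, and the other 3 also lay above all controls of that genotype, though replicate 3 was below WT control replicate 4. Ifih1 rose in Sema3b-/- (log2 fold change 0.97, SE 0.27, adjusted p = 0.0268) and was at 0.43 (SE 0.27, adjusted p = 0.372) in WT. Its call was lost without Sema3b-/- control replicate 2 or 4 or arthritis replicate 2 or 5 (adjusted p up to 0.0725). Ddx58, the sensor RIG-I, and Dhx58, its regulator LGP2, had log2 fold changes of 0.99 and 0.92 in Sema3b-/- and 0.40 and 1.02 in WT, and passed the test averaged over genotypes (adjusted p = 0.0371 and 0.0169). DESeq2 also called Dhx58 in WT and Ddx58 in Sema3b-/-. The averaged call of Ddx58 was lost without any 1 of 10 libraries (adjusted p up to 0.0755).

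Of the transcription factors that carry the interferon signal, 1 of 4 rose in Sema3b-/- arthritis. Irf9, the DNA-binding partner of Stat2 (chr14:55603571-55610030, plus strand), was at 174, 204, 225 and 181 in WT control and 231, 205, 135 and 204 in Sema3b-/- control. It was at 166, 149, 217, 284 and 307 in WT arthritis and 267, 393, 312, 297 and 333 in Sema3b-/- arthritis. All Sema3b-/- arthritis libraries exceeded all controls, and WT arthritis replicates 1 and 2 were the lowest of the WT libraries. Irf9 rose in Sema3b-/- (log2 fold change 0.74, SE 0.21, adjusted p = 0.0283), a call lost without control replicate 3 or arthritis replicate 2 or 5 of that genotype (adjusted p up to 0.0999), and was at 0.15 (SE 0.21, adjusted p = 0.714) in WT.

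Irf7, which amplifies interferon alpha production (chr7:141262706-141266481, minus strand), was at 76.3, 74, 76 and 51.2 in WT control and 56.6, 129.6, 73.6 and 34.8 in Sema3b-/- control. It was at 63.6, 61.9, 162, 275 and 219 in WT arthritis and 115, 301, 111, 129.8 and 379 in Sema3b-/- arthritis. Sema3b-/- control replicate 2 lay above arthritis replicates 1 and 3 of that genotype and level with replicate 4, so those groups overlapped. By limma and edgeR Irf7 passed in neither genotype, at 1.44 (SE 0.50, adjusted p = 0.0668) in Sema3b-/- and 0.93 (SE 0.50, adjusted p = 0.289) in WT by limma, while DESeq2 called it in Sema3b-/-. It rose averaged over both (log2 fold change 1.18, SE 0.35, adjusted p = 0.0228). Irf1, the factor most directly induced by interferon gamma, was at a log2 fold change of 0.54 in Sema3b-/- and -0.11 in WT, and Stat2 at 0.65 and -0.40. Neither was called in any comparison by the 3 tools.

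Isg15, a ubiquitin-like protein that is attached to other proteins after interferon treatment, was among the 3 genes that rose in both genotypes (chr4:156199424-156200818, minus strand). It was at 18.8, 25.3, 34.7 and 26.4 normalized counts in WT control and at 64.7, 84.4, 30.9 and 28.8 in Sema3b-/- control. It was at 65.1, 51.9, 125, 263 and 136 in WT arthritis and at 146, 292, 109.6, 165 and 326 in Sema3b-/- arthritis. Neither genotype's arthritis and control libraries overlapped, although WT arthritis replicates 1 and 2 were below Sema3b-/- control replicate 2. The log2 fold change was 2.04 (SE 0.45, adjusted p = 0.0175) in WT and 2.00 (SE 0.45, adjusted p = 0.00912) in Sema3b-/-. The WT call was lost without WT control replicate 1 or 2 (adjusted p up to 0.0661) and with sex as a term (adjusted p = 0.180, log2 fold change 1.5), while the Sema3b-/- call remained in each of these fits.

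Usp18, the protease that removes Isg15 from its targets and dampens the type I receptor (chr6:121245906-121270917, plus strand), was at 16.6, 24.4, 32.8 and 26.4 in WT control and 68.8, 30.7, 29.7 and 15.6 in Sema3b-/- control. It was at 45.8, 25.7, 57.5, 83.4 and 62.7 in WT arthritis and 58.3, 118, 39.2, 48.8 and 164 in Sema3b-/- arthritis. Sema3b-/- control replicate 1, the shallowest library, was higher than 3 of the 5 arthritis libraries of its genotype. Usp18 passed the limma test averaged over genotypes (log2 fold change 1.12, SE 0.32, adjusted p = 0.0170) and in neither genotype alone (log2 fold change 1.05 in WT and 1.2 in Sema3b-/-). DESeq2 called it in Sema3b-/-. Herc6, the ligase that attaches Isg15 in mice, was at 0.61 and 1.02 and was not called by limma or edgeR, while DESeq2 called it averaged over genotypes.

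Of the 9 RNA-binding and RNA-degrading effectors, the largest role, 6 rose in Sema3b-/- arthritis (Ifit3, Oas1a, Oas2, Oasl1, Oasl2 and Eif2ak2). In WT 1 of 9 rose. Of all genes 6.84% rose in Sema3b-/- and 2.64% in WT, and these shares stand beside the count of every role. Eif2ak2, the kinase PKR that halts translation on double-stranded RNA (chr17:78852564-78882573, minus strand), was at 51.9, 63.2, 40.3 and 47.7 in WT control and 24.3, 82.7, 38 and 39.6 in Sema3b-/- control. It was at 124, 72.4, 129.9, 153 and 92.5 in WT arthritis and 142, 203, 87.4, 121 and 147 in Sema3b-/- arthritis. No arthritis library fell into the control range of its own genotype, and unlike Zbp1 the level in WT arthritis replicate 1 was close to that in replicate 3. Eif2ak2 rose by 1.13 (SE 0.31, adjusted p = 0.0460) on the log2 scale in WT and by 1.67 (SE 0.31, adjusted p = 0.00303) in Sema3b-/-. The WT call was lost without any 1 of 12 libraries (adjusted p up to 0.142) and with sex as a term (adjusted p = 0.281).

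Oas2, a synthase of the oligoadenylates that activate RNase L (chr5:120730333-120749853, minus strand), was at 25.4, 17.1, 15 and 13.6 in WT control and 4.05, 19.6, 11.9 and 7.20 in Sema3b-/- control. It was at 19.2, 13.1, 28.7, 34 and 17.1 in WT arthritis and 47.9, 77.7, 38.2, 32.2 and 71.5 in Sema3b-/- arthritis. The Sema3b-/- arthritis libraries lay above every control library, while WT arthritis replicates 1, 2 and 5 were below WT control replicate 1. The value in Sema3b-/- control replicate 1 is below the 12.1 normalized counts that 3 reads make there. Oas2 rose in Sema3b-/- (log2 fold change 2.33, SE 0.41, adjusted p = 0.00222) and was at 0.28 (SE 0.41, adjusted p = 0.726) in WT. Its interaction, the difference between the genotypes' arthritis effects, was 2.06 (SE 0.58, adjusted p = 0.896), the lowest p among the 38 genes and not called.

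The other called effectors in Sema3b-/- were Oas1a at a log2 fold change of 2.50 (SE 0.60), Oasl1 at 1.96 (SE 0.60), Oasl2 at 1.89 (SE 0.37) and Ifit3 at 1.89 (SE 0.52). Ifit proteins bind viral RNA by its 5′ end, and the Oasl proteins are relatives of the Oas synthases. The calls of Oasl1 and Ifit3 were lost without any 1 of 10 and 5 libraries (adjusted p up to 0.106 and 0.0830), and edgeR did not call Oasl1 there (adjusted p = 0.0566). Averaged over genotypes Oasl1 was called by edgeR and DESeq2 and not by limma. Oas1a was at only 0 to 24.6 normalized counts, and reads may be shared with the close paralogs Oas1b, Oas1c and Oas1g, of which Oas1b was called in Sema3b-/- (2.43, adjusted p = 0.0467). Ifit1 missed the limma threshold in Sema3b-/- (log2 fold change 1.71, adjusted p = 0.0505), was called there by edgeR, DESeq2 and the authors' deposited table and in WT by DESeq2, and rose averaged over genotypes (1.47, adjusted p = 0.0129). Ifit2 (0.76 in Sema3b-/-, 0.46 in WT) passed no comparison by limma and was called by edgeR and DESeq2 averaged over genotypes. Oas3 (0.96 and 0.09) passed none by the 3 tools.

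Among the effectors at membranes and in replication, 3 of 7 rose in Sema3b-/- (Mx2, Bst2 and Ifitm3) and 1 of 7 in WT. Bst2, or tetherin, holds budding virions at the cell surface (chr8:71534255-71537456, minus strand). It was at 40.9, 65, 86.3 and 85.3 in WT control and 48.6, 86, 64.1 and 58.8 in Sema3b-/- control. It was at 127, 90.3, 254, 344 and 273 in WT arthritis and 260.4, 356, 175, 296 and 454 in Sema3b-/- arthritis. The arthritis libraries of both genotypes lay above all 8 controls, WT replicate 2 by the smallest margin. Bst2 rose in WT (log2 fold change 1.53, SE 0.36, adjusted p = 0.0262) and in Sema3b-/- (log2 fold change 2.20, SE 0.36, adjusted p = 0.00163), and averaged over genotypes it had the lowest p of the 38 genes (log2 fold change 1.87, SE 0.26, adjusted p = 0.000133). The WT call was lost without WT control replicate 1, 2 or 3 or WT arthritis replicate 3, 4 or 5 (adjusted p up to 0.0948) and with sex as a term (adjusted p = 0.251).

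Ifitm3, which blocks fusion of viruses in endosomes (chr7:141009586-141010770, minus strand), was at 1341, 1394, 1254 and 1541 in WT control and 1489, 1384, 1180.1 and 1022 in Sema3b-/- control. It was at 1391, 1094, 1846, 2244 and 1932 in WT arthritis and 1955, 2362, 1748, 2055 and 2706 in Sema3b-/- arthritis. It rose in Sema3b-/- (log2 fold change 0.77, SE 0.18, adjusted p = 0.0129), without overlap, and was at 0.26 (SE 0.18, adjusted p = 0.429) in WT, where replicate 2 was below every WT control. Its paralog Ifitm1 rose in both genotypes, by 1.77 (adjusted p = 0.0285) in WT and 2.96 (adjusted p = 0.000981) in Sema3b-/- on the log2 scale, and Ifitm2 passed neither (0.18 and 0.50).

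Mx2 was near the limit of detection, at 0 to 6.70 normalized counts in Sema3b-/- control and 4.02 to 22.2 in Sema3b-/- arthritis, which overlapped. Its limma call (log2 fold change 2.15, adjusted p = 0.0345) was lost without any 1 of 5 libraries and was not made by edgeR (adjusted p = 0.148) or DESeq2 (adjusted p = 0.109). Mx1, a dynamin-like antiviral GTPase whose allele in C57BL/6 mice encodes no functional protein, rose averaged over genotypes (1.47, adjusted p = 0.0174), and DESeq2 called it in Sema3b-/- too. Rsad2, or viperin, was at 0.40 in Sema3b-/- and 0.69 in WT, Cmpk2, its neighbour on chromosome 12, at 0.76 and -0.06, and Samhd1, which depletes nucleotides, at 0.61 and 0.08. These 3 passed no comparison.

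All 3 tested guanylate-binding proteins, GTPases that attack pathogen vacuoles and are strongly induced by interferon gamma, rose in Sema3b-/- arthritis and none in WT. The authors' deposited table called Gbp2 there (adjusted p = 0.0429), but not Gbp3 or Gbp7 (adjusted p = 0.0516 and 0.0636). Gbp2 (chr3:142620602-142638008, plus strand) was at 262, 549, 489 and 339 in WT control and 235, 204, 122 and 259 in Sema3b-/- control. It was at 324, 259, 367, 509.5 and 569 in WT arthritis and 417, 343, 404, 399.9 and 514 in Sema3b-/- arthritis. The Sema3b-/- controls were the low group here, since all 4 were below all 4 WT controls, while both arthritis groups overlapped WT control. Gbp2 rose in Sema3b-/- (log2 fold change 1.06, SE 0.26, adjusted p = 0.0148) and was at -0.01 (SE 0.26, adjusted p = 0.982) in WT. Against WT control the Sema3b-/- control was at -0.99 (SE 0.27, adjusted p = 0.793), which is not a call.

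Gbp3 (chr3:142560026-142573209, plus strand) was at 39.8, 85.7, 81.6 and 57.1 in WT control and 44.5, 57.5, 33.2 and 28.8 in Sema3b-/- control. It was at 50.3, 40.6, 92, 132 and 129 in WT arthritis and 82.9, 122, 88.5, 75.8 and 156 in Sema3b-/- arthritis. Gbp3 rose in Sema3b-/- (log2 fold change 1.33, SE 0.36, adjusted p = 0.0218), with no overlap in that genotype, and was at 0.33 (SE 0.36, adjusted p = 0.614) in WT. Gbp7 (chr3:142530342-142550149, plus strand) was at 191, 379, 267 and 196 in WT control and 194, 146, 121 and 156 in Sema3b-/- control. It was at 297, 211, 298, 401 and 282 in WT arthritis and 194, 372, 219, 250.1 and 350.1 in Sema3b-/- arthritis. The Sema3b-/- controls were low here too, and only WT arthritis replicate 4 exceeded the highest WT control. Gbp7 rose in Sema3b-/- (log2 fold change 0.81, SE 0.24, adjusted p = 0.0334) and was at 0.23 (SE 0.24, adjusted p = 0.596) in WT. The calls were lost without Sema3b-/- control replicate 3 for Gbp2 (adjusted p = 0.0568), without any 1 of 4 libraries for Gbp3 (up to 0.0619) and without any 1 of 5 for Gbp7 (up to 0.101). The neighbouring paralogs Gbp4 and Gbp8 were at log2 fold changes of -1.26 and -1.16 in WT and -0.14 and 0.31 in Sema3b-/-, none called, and reads may be shared within this family.

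Of the 2 chemokines, which draw T and NK cells through the receptor Cxcr3, 1 rose in Sema3b-/- and none in WT. Cxcl10 (chr5:92346638-92348889, minus strand) was at 7.74, 18, 39.4 and 35 in WT control and 8.09, 8.38, 14.2 and 8.39 in Sema3b-/- control. It was at 11.8, 10, 62.1, 159 and 48.8 in WT arthritis and 60.9, 148, 50.3, 43.6 and 261 in Sema3b-/- arthritis. All Sema3b-/- arthritis libraries exceeded all 8 controls, and WT arthritis replicates 1 and 2 were within the control range. The 8.09 in Sema3b-/- control replicate 1 is below the 12.1 normalized counts that 3 reads make in that library. Cxcl10 had the largest fold change of the 38 genes in Sema3b-/- (log2 fold change 3.08, SE 0.72, adjusted p = 0.0123) and was at 0.75 (SE 0.72, adjusted p = 0.572) in WT.

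Cxcl9, which unlike Cxcl10 depends mainly on interferon gamma (chr5:92321347-92328079, minus strand), was at 24.3, 97.5, 46.9 and 53.7 in WT control and 20.2, 23.5, 0 and 7.20 in Sema3b-/- control. It was at 13.3, 20.9, 42.5, 83.4 and 71 in WT arthritis and 5.18, 23.7, 29.1, 38.3 and 52.8 in Sema3b-/- arthritis. WT control replicate 2 held the highest level of all 18 libraries, and each arthritis group overlapped its control. Cxcl9 was not called in Sema3b-/- (log2 fold change 1.63, SE 0.85, adjusted p = 0.219) or WT (log2 fold change -0.40, SE 0.85, adjusted p = 0.819). A direct test of Cxcl10 against Cxcl9 was not made.

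Of the 6 other induced proteins, 4 rose in Sema3b-/- (Xaf1, Parp14, Rtp4 and Trim30a) and none in WT by limma. Trim30a, a ubiquitin ligase (chr7:104409025-104465193, minus strand), was at 152, 166, 169 and 176 in WT control and 142, 154, 91.4 and 80.3 in Sema3b-/- control. It was at 134, 155, 304, 354 and 311 in WT arthritis and 306, 385, 193, 219.6 and 412 in Sema3b-/- arthritis. WT arthritis replicates 1 and 2 were at or under the level of the WT controls, and replicates 3 to 5 were above all controls, as were the 5 Sema3b-/- arthritis libraries. Trim30a rose in Sema3b-/- (log2 fold change 1.36, SE 0.30, adjusted p = 0.00808) and was at 0.49 (SE 0.30, adjusted p = 0.348) in WT. Its paralog Trim30d rose there too (log2 fold change 1.62, adjusted p = 0.00536).

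Rtp4, a chaperone of receptors that also binds viral RNA (chr16:23520291-23614222, plus strand), was at 99.5, 125, 143 and 125 in WT control and 117, 187, 61.7 and 64.8 in Sema3b-/- control. It was at 106, 105, 268, 784 and 516 in WT arthritis and 293, 483, 284, 341 and 627 in Sema3b-/- arthritis. WT arthritis replicate 4 was the highest of all 18 libraries, and replicates 1 and 2 lay in the WT control range. Rtp4 rose in Sema3b-/- (log2 fold change 1.98, SE 0.53, adjusted p = 0.0233), a call lost without control replicate 3 or 4 or arthritis replicate 2 or 5 of that genotype (adjusted p up to 0.0713), and was at 1.09 (SE 0.53, adjusted p = 0.245) in WT, where DESeq2 called it.

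Parp14, an ADP-ribosyltransferase (chr16:35832874-35871544, minus strand), was at 60.8, 72.2, 65.7 and 60.5 in WT control and 56.6, 71.5, 47.5 and 38.4 in Sema3b-/- control. It was at 65.1, 62.8, 94.3, 145 and 85.6 in WT arthritis and 108, 143, 81.4, 83.6 and 163 in Sema3b-/- arthritis. Its Sema3b-/- groups did not overlap, and it rose there (log2 fold change 1.08, SE 0.26, adjusted p = 0.0137) and was at 0.41 (SE 0.26, adjusted p = 0.373) in WT. Xaf1, a pro-apoptotic antagonist of the inhibitor XIAP, rose in Sema3b-/- by 1.18 on the log2 scale (SE 0.36, adjusted p = 0.0417), a call lost without any 1 of 9 libraries (adjusted p up to 0.105). Ifi44 (1.68 in Sema3b-/-, 0.81 in WT) and Ifi35 (0.27 and 0.13) passed no comparison.

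**Figure D3:**
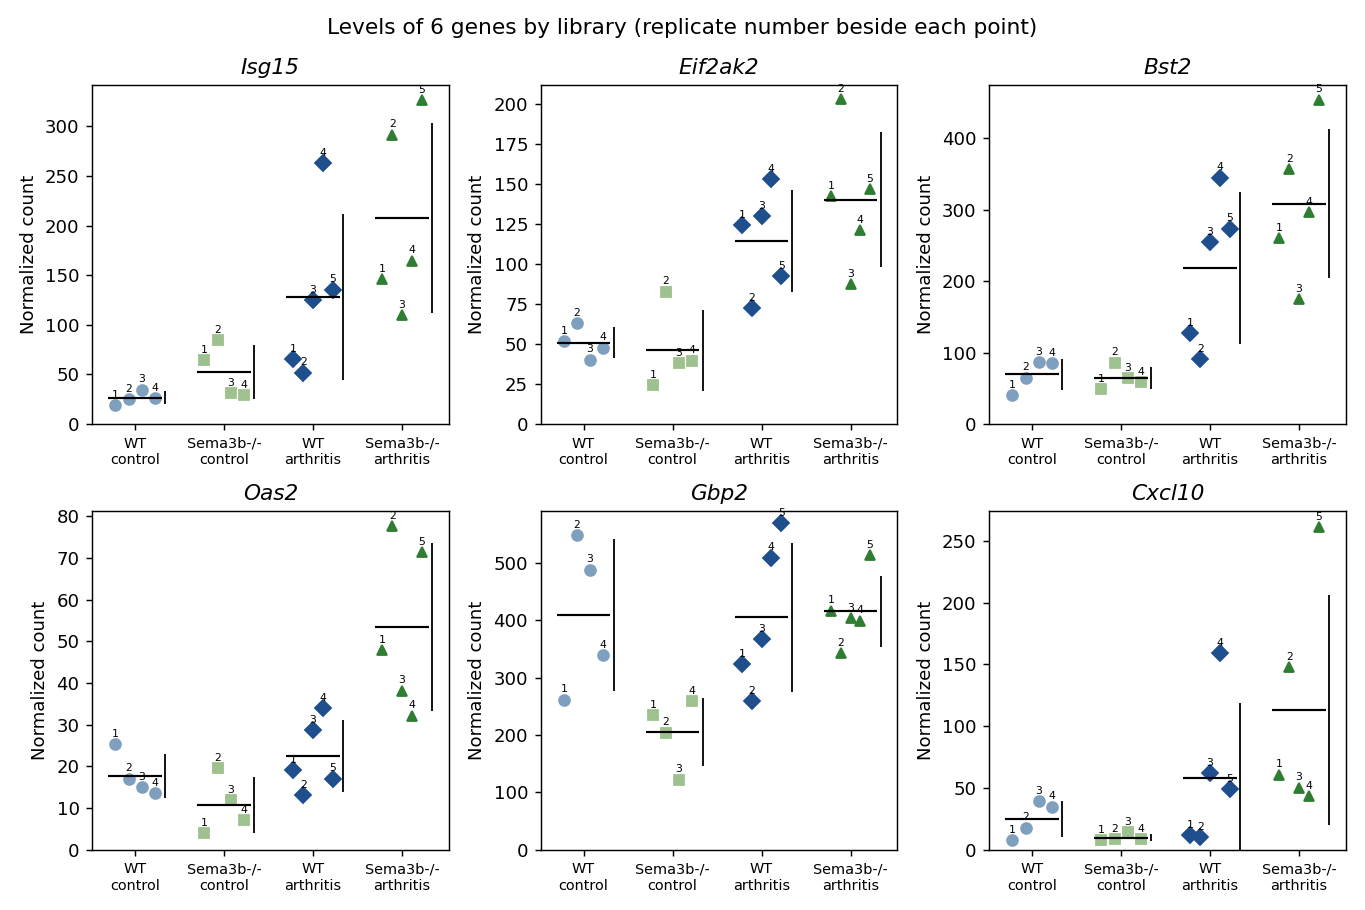
Normalized counts (y axis, linear from 0) of 6 of the genes in every library, by group (x axis), with replicate numbers beside the points, a horizontal line at the group mean and a vertical line of ± 1 SD. Isg15, Eif2ak2 and Bst2 are higher in arthritis in both genotypes, whereas Oas2, Gbp2 and Cxcl10 in WT arthritis overlap WT control.

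Some libraries were high or low across most of these genes. Taking each gene's log2 level over its WT control mean and then the median over the 38 genes, WT control replicates were between -0.16 and 0.16, and Sema3b-/- control replicates 1 to 4 were at -0.22, 0.16, -0.52 and -0.61. WT arthritis replicates 1 to 5 were at 0.01, -0.26, 0.56, 1.24 and 0.89, and Sema3b-/- arthritis replicates 1 to 5 at 0.73, 1.49, 0.63, 0.63 and 1.52. WT arthritis replicates 1 and 2 thus lay within the range of the controls, and the other 8 arthritis libraries lay above it. As a share of all normalized counts, the 39 genes together took 0.0731% to 0.0887% (WT) and 0.0446% to 0.0823% (Sema3b-/-) in control paws. In arthritic paws the share was 0.0522% to 0.159% (WT) and 0.0981% to 0.204% (Sema3b-/-).

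Sema3b-/- arthritis replicate 5 was the highest of the 10 arthritis libraries for 24 genes, Sema3b-/- replicate 2 for 7, WT replicate 4 for 5 and WT replicate 5 for 2. WT arthritis replicate 2, the deepest library, was the lowest for 27. For 27 of 38 genes the 3 highest arthritis libraries were WT replicate 4 and Sema3b-/- replicates 2 and 5, a trio singled out after the values were seen. The highest library was 1 of that trio for 36 of 38 genes and for 28.4% of all tested genes. The lowest was WT replicate 1 or 2 for 32 of 38 and for 29.3% of all genes. That pair was also picked after the values were seen, so both shares only describe these libraries. The number of genes above the highest of the 8 controls was 8, 1, 19, 32 and 26 in WT arthritis replicates 1 to 5, and 20, 31, 17, 20 and 32 in Sema3b-/- arthritis.

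**Figure D4:**
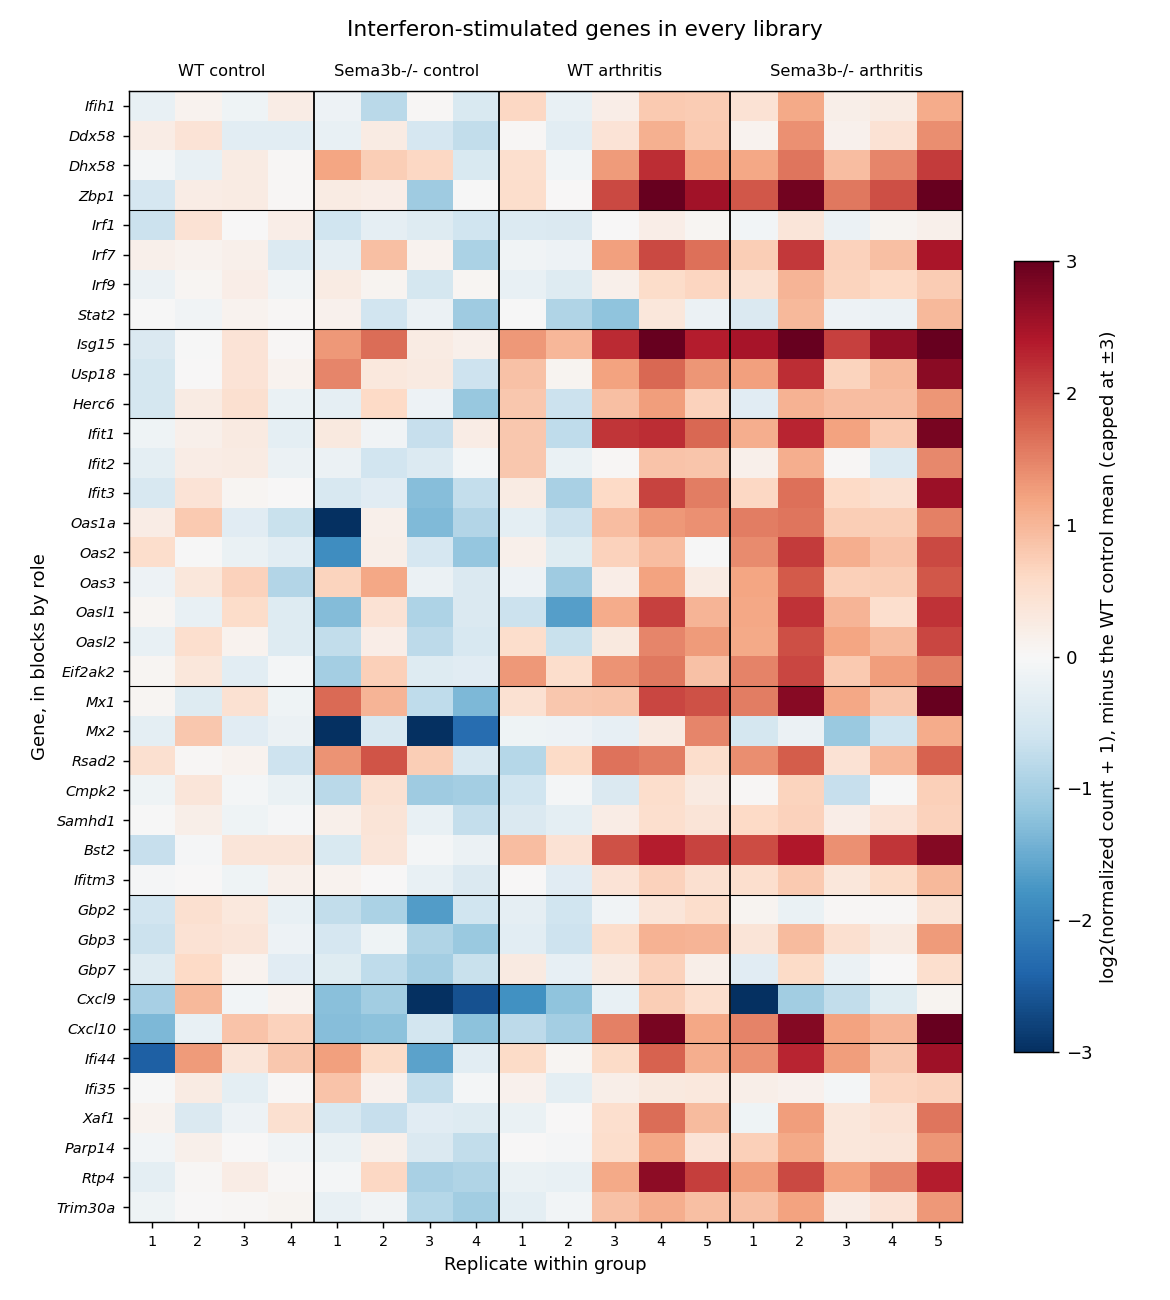
Log2(normalized count + 1) of the 38 tested genes (rows, in blocks by role) in all 18 libraries (columns, by group and replicate), each minus the gene's mean in WT control and capped at ±3. WT arthritis replicates 1 and 2 look like the control columns for most genes, and Sema3b-/- arthritis replicates 2 and 5 and WT arthritis replicate 4 hold the deepest reds.

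Markers of cell types were set beside this pattern, and those of macrophages shared part of it. The summed normalized count of the 11 monocyte and macrophage markers in the table was 2551 to 4184 in the 8 controls, and 4158, 3633, 7562, 7607 and 6612 in WT arthritis replicates 1 to 5. It was 7947, 8117, 5529, 6916 and 7563 in Sema3b-/- arthritis. The WT arthritis replicates 1 and 2, with interferon-stimulated genes at control level, thus also had macrophage markers at control level. Among the other arthritis libraries the macrophage sum followed these genes only in part. WT replicate 3 and Sema3b-/- replicates 1 and 5 had sums of 7562, 7947 and 7563, with gene medians of 0.56, 0.73 and 1.52. Sema3b-/- replicate 2 (8117 and 1.49) and WT replicate 4 (7607 and 1.24) were high for both. WT replicate 5 and Sema3b-/- replicates 3 and 4 had lower sums (6612, 5529 and 6916), with medians of 0.89, 0.63 and 0.63. Of the 11 markers 6 rose in Sema3b-/- arthritis (Ccr2, Lyz2, Mrc1, Itgam, Cd14 and Fcgr1) and 3 in WT (Ccr2, Lyz2 and Mrc1). Of all genes 6.84% rose in Sema3b-/- and 2.64% in WT. Fcgr1, a receptor for immunoglobulin G that is itself inducible by interferon, was at a log2 fold change of 2.57 in Sema3b-/- (adjusted p = 0.00300) and 1.36 in WT (adjusted p = 0.105). The part of these cells in the result was not tested.

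Neutrophil markers did not follow the same order. Their sum was highest in WT arthritis replicate 2 (68331), where the interferon-stimulated genes were lowest among the arthritis libraries, and was 13071 in Sema3b-/- replicate 5, where most of them were highest. Within the genotypes only Cxcr2 of the 10 neutrophil markers was called, in both. The skeletal muscle sum was 115571 and 132617 in WT arthritis replicates 1 and 2 and 6997 to 63003 in the other 8 arthritis libraries, against 68357 to 174633 in controls. WT arthritis replicate 1 also had the highest mitochondrial share, 39.4% of counts against 15.7% to 27.9% elsewhere. The 8 plasmacytoid dendritic cell markers summed to 13567.4 to 33304.0 over the controls. Arthritic paws had sums of 3326.2 to 25272.3 (WT) and 3103.5 to 17200.6 (Sema3b-/-), mostly lower but overlapping the controls. With arthritis 3 of the 8 markers were positive and 5 negative in each genotype (median log2 fold change -0.51 for WT, -0.05 for Sema3b-/-). Only Lair1, which macrophages also express, was called, as higher in Sema3b-/- (log2 fold change 1.49). The defining markers Siglech and Ccr9 were at means of 13.4 to 31.7 and 20.5 to 25.8 normalized counts in the 4 groups, not called. Of 7 tested T and NK cell markers only Gzmb rose in Sema3b-/- (4.27, adjusted p = 0.00661). Cd3e and Ncr1, which define T and NK cells, were at 0 to 14.4 and 0 to 34.3. Of 6 tested B cell markers Cd79a fell in Sema3b-/- arthritis (log2 fold change -2.18). The part of composition in the result was not tested.

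Markers of bone, cartilage, endothelium and fibroblasts also moved with arthritis. In Sema3b-/- arthritis 4 of 8 bone markers fell (Bglap, Alpl, Sp7 and Phex, list median log2 fold change -1.54), as did 3 of 7 tested cartilage markers (Col2a1, Chad and Col9a1, median -2.42) and 2 of 8 endothelial markers (Tek and Vwf, median -0.24). Of all genes 5.55% fell and 6.84% rose in that comparison. Of 10 fibroblast markers Pdpn and Has1 rose there (median 0.21). In WT arthritis Bglap fell and no other marker of these 4 lists was called. The Sema3b-/- controls differed in tissue markers among themselves. The bone sum was 363379 and 382662 in replicates 2 and 3 and the fibroblast sum 355216 and 407337, against 92375 to 111586 and 145731 to 177854 in WT controls. Replicate 4 had the highest epidermis sum of the 18 libraries (356348), the highest skeletal muscle sum (174633) and the lowest macrophage sum (2551). Of the 2 libraries with high bone and fibroblast sums, replicate 3 was low for the interferon-stimulated genes and replicate 2 was not. The part of these tissues in the genotype comparisons was not tested.

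**Figure D5:**
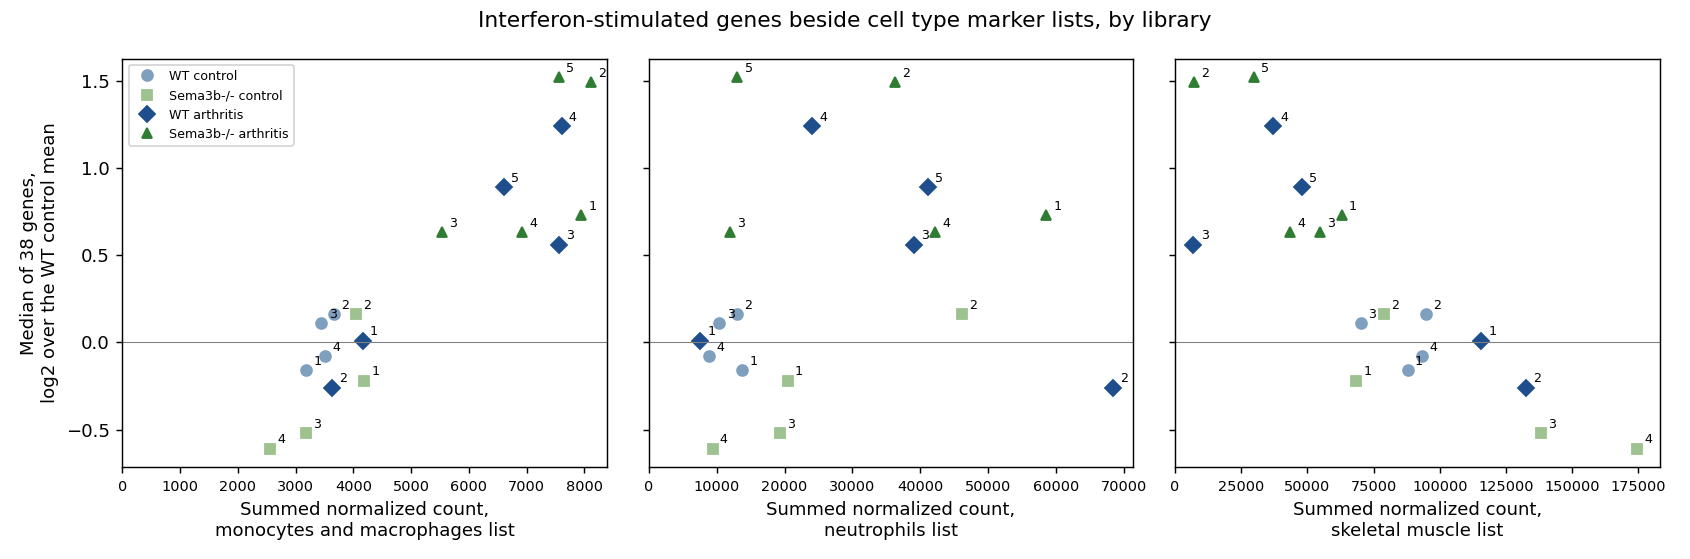
Median log2 level of the 38 genes over the WT control mean (y axis) against the summed normalized count of 3 marker lists (x axes, linear from 0) in each library, with replicate numbers. WT arthritis replicates 1 and 2 sit with the controls on the macrophage axis, the other 8 arthritis libraries are apart from them, and on the neutrophil axis the groups are mixed.

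Upstream of these genes, the interferons themselves were barely read. Of the 10 interferon genes listed only Ifng was in the table, at 0 to 6.90 normalized counts, too low to test. Of 9 receptors and signalling genes, Il10rb, a subunit of the lambda receptor that is shared with interleukin-10, rose by 0.78 (adjusted p = 0.0123) in Sema3b-/-, and none passed in WT. Averaged over genotypes, where 12.6% of all genes rose, 6 of 9 rose on the log2 scale: Ifnar2 (0.52), Ifngr1 (0.38), Ifngr2 (0.55), Il10rb (0.59), Jak1 (0.24) and Jak2 (0.39). Ifnar1, Ifnlr1 and Tyk2 passed no comparison.

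Of 13 tested genes of nucleic acid sensing, 6 rose in Sema3b-/-: Mb21d1 (1.09) and Tmem173 (1.43), which encode the DNA sensor cGAS and its adaptor STING, Irf5 (0.77), Tbk1 (0.70), Tlr3 (1.04) and Adar (0.87). Of all genes 6.84% rose and 5.55% fell in that comparison, and 2.64% rose and 1.58% fell in WT. Mavs, the mitochondrial adaptor of the RNA sensors, fell in both genotypes, by 0.74 in WT and 0.68 in Sema3b-/- on the log2 scale (adjusted p = 0.0398 and 0.0300). Tlr7, an endosomal RNA sensor, rose in WT (1.18, adjusted p = 0.0173) and was at 0.79 in Sema3b-/- (adjusted p = 0.0532). Irf3 fell averaged over genotypes, by 0.40, and Trex1 rose in that comparison (0.73). Of 6 negative regulators Socs3 rose in both genotypes (1.57 and 1.70), Ptpn6 rose in Sema3b-/- (0.76), and Ptpn2 rose averaged over genotypes (0.31). Socs3 is also a target of interleukin-6.

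The second question was whether the genotypes differed. In control paws none of the 38 genes was called between Sema3b-/- and WT, by limma, edgeR or DESeq2, and 5 had an unadjusted limma p under 0.05 (5 with edgeR, 6 with DESeq2): Irf1, Mx2, Gbp2, Gbp7 and Cxcl9, all lower in Sema3b-/-. Among all genes 0.0145% were called and 5.87% had an unadjusted p under 0.05. The log2 difference was negative for 31 of 38, with a median of -0.31, and for 50.8% of all genes. The median was -0.20 without Sema3b-/- control replicate 4 and -0.52 with sex as a term. Of those 5, Cxcl9 was at -2.65 (SE 0.90), Mx2 at -2.41 (SE 0.67) and Gbp2 at -0.99 (SE 0.27).

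In arthritic paws none was called either, by any of the 3 tools, where 0.0217% of all genes were. With an unadjusted limma p under 0.05 were Oas2, Oas3, Oasl2, Irf9, Samhd1 and Ifitm3, 6 of 38, all higher in Sema3b-/-, against 8.97% of all genes (4 of 38 with edgeR and with DESeq2). The difference was positive for 34 of 38, with a median of 0.43, and for 50.3% of all genes. The median was 0.21 without WT arthritis replicate 2, 0.26 without Sema3b-/- arthritis replicate 5 and 0.66 without WT arthritis replicate 4, and 0.69 with sex as a term. Oas2 was at 1.22 (SE 0.38, adjusted p = 0.351).

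The larger number of calls in Sema3b-/- than in WT is not by itself a difference between genotypes, so the interaction was tested. None of the 38 genes was called by limma, edgeR or DESeq2, nor any gene of the table by limma (0.0%). The lowest adjusted p was 0.896 (Oas2), and 8 of 38 had an unadjusted limma p under 0.05, against 4.80% of all genes (5 with edgeR, 6 with DESeq2). The arthritis effect was larger in Sema3b-/- for 35 of 38, against 50.9% of all genes, with a median difference of 0.66 and a median SE of 0.54 for a single gene. With sex as a term the median was 1.22. The arthritis and genotype comparisons share libraries, so these values are not independent of those above: a low Sema3b-/- control and a low pair of WT arthritis libraries both enter the difference.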

How the data were processed

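CEL-seq of 18 forepaw libraries was analysed from the authors' deposited tables. The submitters' processing notes name mm10, BWA and DESeq2 1.32. The read counter, its annotation and the treatment of duplicates are not stated in the labels or file headers. The main table holds a normalized signal, counts that the authors divided by a size factor, for 18585 genes, of which 26 names turned into dates by a spreadsheet were restored. Multiplying back gave whole reads for 100.0% of values (within 0.02). The authors' deposited comparison tables hold log2 fold changes with their errors, a Wald score and p-values, plain and adjusted; the fold changes and adjusted p-values are quoted where named.

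The main test was limma 3.58.1 (R 4.3.3, trend and robust empirical Bayes) on log2(normalized count + 1), with 4 group means over all 18 libraries and genes at 10 or more in at least 4 libraries. The pseudocount makes fold changes of low genes smaller. Adjusted p-values are Benjamini-Hochberg over 13809 genes, and a call is an adjusted p under 0.05. The scripts were tested on simulated data. edgeR 4.0.16 and DESeq2 1.42.0 on the recovered counts, other pseudocounts, filters and scalings, sex, title wording, the replicate number and each library left out were alternatives. Values per library are given for the 2 genes of each role with the lowest p in Sema3b-/- and the 1 with the lowest in WT. Pathway genes are named where called. Results on 2 genes of the pathway and marker lists are not reported here, and the counts leave them out. Gene coordinates are from GENCODE M21 (mm10) and promoter sequences from RefSeq (GRCm38.p6). The genes, the pathway and marker lists and the tests were chosen with earlier results of these data known. The control libraries called Sema3b-/- replicates 3 and 4 carry the same number in their titles, and the arthritis library called Sema3b-/- replicate 5 follows its title, although its column is named as a control. Replicate values range over depths of 1732783 to 19464892 reads, so low genes are least precise in the shallowest library.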

Additional observations from a re-analysis of the deposited data

Results flagged for a closer look

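Among the 18 genes described in every library, 72 groups of 4 or 5 libraries were checked for a single library that stood apart by Dixon's criterion, by which chance alone picks out about 1 group in 20. It picked out 2. Irf7 in WT control replicate 4 was at 51.2 normalized counts, below the 74.0 to 76.3 of the other 3 WT controls. Cxcl10 in Sema3b-/- control replicate 3 was at 14.2 normalized counts, above the 8.09 to 8.39 of the other 3. In replicate 3 itself 3 reads make 3.56 normalized counts. The 8.09 of replicate 1, the shallowest library, is below the 12.1 that 3 reads make there.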

How the results depend on the processing

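The count of higher genes was 3 in WT arthritis and became 7 with DESeq2, 0 with sex as a term and 0 with the replicate block. In Sema3b-/- arthritis it was 21 and became 13 with the replicate block and 11 with title wording as a term. Averaged over genotypes it was 25 and became 11 with the replicate block and 13 with title wording. The cause of these shifts was not tested. The other 141 of 148 counts over these settings stayed within 1.5 times. Most of them were counts of lower genes, or counts for the genotype comparisons and the interaction. Those were 0 in the main fit and 0 under every setting, so they say little on stability. Leaving out each library in turn gave 0 to 6 in WT, 12 to 23 in Sema3b-/- and 21 to 28 averaged, and 0 to 0 for the genotype comparisons, the interaction and all counts of lower genes. With sex as a term the median log2 fold change moved from 0.48 to 0.08 in WT and that of the interaction from 0.66 to 1.22. That between genotypes moved from 0.43 to 0.69 in arthritis and from -0.31 to -0.52 in controls. No WT control was male, 1 WT arthritis library was female and 1 Sema3b-/- arthritis library was male. The sex term thus leans on few libraries, and these medians are not a clean adjustment for sex. The remaining values pool the single-gene calls with the group medians. Of these, 71 of 626 under other settings and 107 of 986 with 1 library left out no longer passed the threshold. All of those lost were single-gene calls, so the share lost among single-gene calls alone is higher. The replicate numbers did not pair the libraries, since same-numbered libraries correlated from -0.658 to 0.414 over 25 pairs and 3 of 18 were closest to their own number. Oas1a, Oas2, Oas3, Oasl1, Mx1, Mx2, Herc6, Gbp5, Cxcl9, Cxcl10 and Ifi44 each had at least 1 control value below the 12.1 normalized counts that 3 reads make in the shallowest library. In the other control libraries 3 reads make only 1.68 to 3.60, so a value under 12.1 there can rest on more reads.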
